A study of Homo sapiens with 4 samples.

Results

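The genes described here lie on the proximal long arm of chromosome 14, in a run from RNF31 to MAP4K5. They are 56 listed genes of 105 protein-coding genes that RefSeq places in this interval. They were chosen with the contrast of this study known, as a stretch in which many genes were lower in FOXC1 arrays, so their differences are a description and were not tested as a group. Of the 56 genes, 51 had a probe set annotated to that gene alone, out of 18417 genes measured in this way, and the brightest probe set stood for each gene. NEDD8, which encodes a ubiquitin-like modifier of cullin ligases, was measured only on a probe set shared with the readthrough transcript NEDD8-MDP1. TM9SF1, GMPR2, LTB4R and BRMS1L had no probe set named in the annotation used here.

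The cells were MDA-MB-231, a human breast cancer line, kept in medium with 10% fetal bovine serum and the antibiotics penicillin and streptomycin. One group received a FOXC1 plasmid by lipofection and the other received vector, with 2 arrays in each group and 4 in all. FOXC1 is a forkhead protein that binds DNA and regulates transcription. The labels call the arrays of a group biological replicates. The sources used here do not give the promoter of the plasmid, the time of harvest or whether cells were pools or clones. The FOXC1 transcript was not analysed here.

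Chromosome 14 is acrocentric, so that nearly all of its genes lie on the long arm. Cancer lines such as MDA-MB-231 carry abnormal chromosome numbers, and cells of one line can differ in the copies of a segment. A change in the copies of a segment is known to move the transcripts of many genes in it in one direction, while some genes are buffered and silent genes cannot follow. The question put to the data was whether the bright genes of the run were lower by a like amount. Neither DNA copy number nor the proportion of cells that differ was measured, and a small change in all cells cannot be told apart from a large one in some of them.

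The values are PLIER signals on a linear scale, and each difference is the mean of log2(signal + 16) in FOXC1 arrays minus that in vector arrays. The median signal was between 489 and 512 in the 4 arrays. A gene was called bright when its mean over the arrays lay above the median of all named probe sets, a signal of 782, and dim otherwise. The 6 genes fixed as markers of this line (VIM, CD44, CAV1, AXL, EGFR and MSN) all lay in the brightest 10% of named probe sets. Of 5 luminal and epithelial genes, PGR lay at the 6.52nd and ESR1 at the 23.3rd percentile and CDH1 gave signals between 270 and 287, while KRT8 lay at the 96.7th and GATA3 at the 51.8th. The leukocyte, endothelial and fibroblast markers measured, 3 of each, lay between the 4.36th and 60.0th percentile. In limma at an adjusted p of 0.05 the leukocyte gene PTPRC passed higher (log2 0.47) and the endothelial gene PECAM1 lower (-1.65). The epithelial keratin KRT8 (-0.28) and the luminal factor GATA3 (-0.17) passed lower. Of the markers of the line CAV1 (-0.28), MSN (-0.12) and VIM (-0.06) passed lower and CD44 (0.23) and EGFR (0.20) higher. The part of these genes in the results was not tested.

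Most genes of the run were lower in FOXC1 cells by a small amount. The log2 difference was below 0 in 45 of the 51 measured genes, against 41.1% of all genes, and its median was -0.23, against 0.03 for all genes. In limma, 31 of the 51 passed as lower at an adjusted p of 0.05, against 15.5% of all genes, and 0 passed as higher, against 15.9%. Also at an unadjusted p of 0.05 in limma 0 were higher. Both FOXC1 arrays lay below both vector arrays in 36 of the 51, against 26.4% of all genes. Because the run was chosen on this contrast, these counts describe the choice. Bright genes carried most of the calls, with 25 of 31 passing as lower against 23.3% of all bright genes, while 6 of the 20 dim genes passed against 7.43% of all dim genes. As higher passed 23.9% of all bright and 7.64% of all dim genes, and none of the run. The difference was below 0 in 30 of the 31 bright genes, against 47.2% of all bright genes, and in 15 of the 20 dim ones, against 34.9% of all dim genes. The median log2 difference was -0.27 in bright genes and -0.06 in dim ones, as against 0.01 and 0.06 over all bright and all dim genes.

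**Figure D1:**
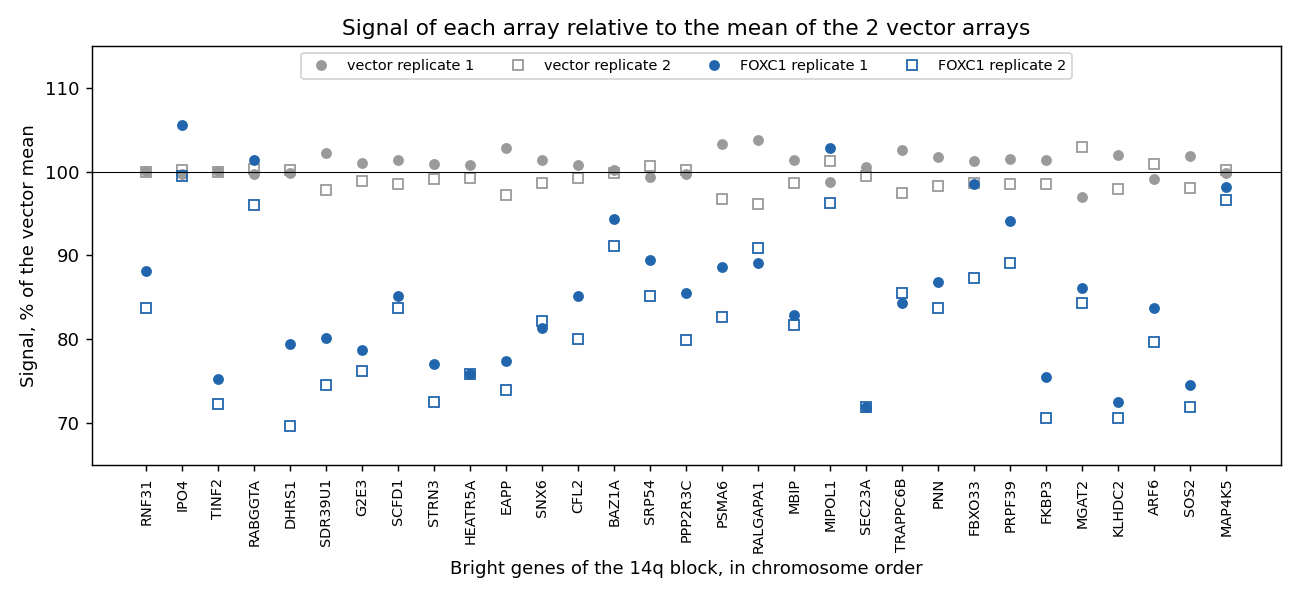
Signal of the 31 bright genes of the run in each array, as a percentage of the mean of the 2 vector arrays (y axis), with genes in chromosome order (x axis); grey symbols are vector arrays and blue symbols FOXC1 arrays. The vector arrays lie between 96.2% and 104%, while the FOXC1 arrays have medians of 85.1% and 82.2% and reach down to 69.6%.

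The FOXC1 arrays resembled each other. In the 31 bright genes the median log2 difference from the vector mean was -0.23 in FOXC1 replicate 1, where 28 genes lay below 0, and -0.28 in FOXC1 replicate 2, where all 31 did. The arrays of a group differed by a median of 0.04 (vector) and 0.07 (FOXC1) in absolute log2 over these genes, which is less than the median difference between the groups. FOXC1 replicate 1 lay above FOXC1 replicate 2 by a median log2 of 0.07 in the bright genes of the run and by 0.01 over all genes. Without FOXC1 replicate 2 the median of the bright genes was -0.23, and without FOXC1 replicate 1 it was -0.28.

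The bright genes were lower by unequal amounts. Their log2 differences ran from -0.48 (KLHDC2) to 0.04 (IPO4), with the middle 50% between -0.40 and -0.17. Their SD was 0.15, which is 3.51 times the median SE of a single gene (0.04). The spread between genes was thus larger than the error between arrays. That error leaves out differences between probe sets of a gene, as in RALGAPA1 (-0.15 and -0.26) and RNF31 (-0.22 and -0.16). The part of such differences in the spread was not tested. Over all 9328 bright genes the SD was 0.27, or 6.30 times their median SE. Of the 31 bright genes, 14 lay within 0.1 and 25 within 0.2 of their median, which are 45.2% and 80.6%. Over all 9328 bright genes the shares within the same distances of their own median were 49.7% and 76.1%. The bright genes of the run were thus lower as a group, with a smaller SD than bright genes in general. Their shares near their own median were close to those of bright genes in general.

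By size, 7 bright genes were lower by more than 0.4 in log2, 4 by 0.3 to 0.4, 11 by 0.2 to 0.3 and 5 by 0.1 to 0.2. The 4 others, IPO4, MIPOL1, RABGGTA and MAP4K5, lay within 0.1 of 0. For scale, a signal proportional to copies would give a log2 difference of -0.26 for 1 copy lost of 6, -0.32 for 1 of 5, -0.42 for 1 of 4, -0.58 for 1 of 3 and -1 for 1 of 2. None of the 31 bright genes reached -0.58, and 7 lay at or below -0.42. How closely PLIER signal follows RNA amount was not measured here, so these figures give a scale and no copy number.

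The SD was of a like size at middle and high signal, but the middle 50% of genes was narrower at high signal. The 15 genes above the 75th percentile of signal (2322) had a median of -0.24 and an SD of 0.14. Their middle 50% lay between -0.29 and -0.21, and 9 of the 15 (60.0%) within 0.1 of their median. Over all genes above that percentile the share was 55.2%. The 16 bright genes between the 50th and 75th percentile had a median of -0.32 and an SD of 0.16. Their middle 50% lay between -0.40 and -0.14, and 6 of the 16 (37.5%) within 0.1 of their median. Within 0.2 lay 11 of the 15 (73.3%), against 80.8% of all genes above the 75th percentile, and 13 of the 16. Across the 31 bright genes, which share the same 4 arrays, the Spearman correlation between mean signal and log2 difference was 0.01. Nearest to the limit of brightness were MIPOL1 (mean signal 806) and RNF31 (998) above it, with log2 differences of -0.01 and -0.22. Just below it were KLHL28 (694) and NKX2-1 (689), with log2 differences of -0.25 and -0.01.

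**Figure D2:**
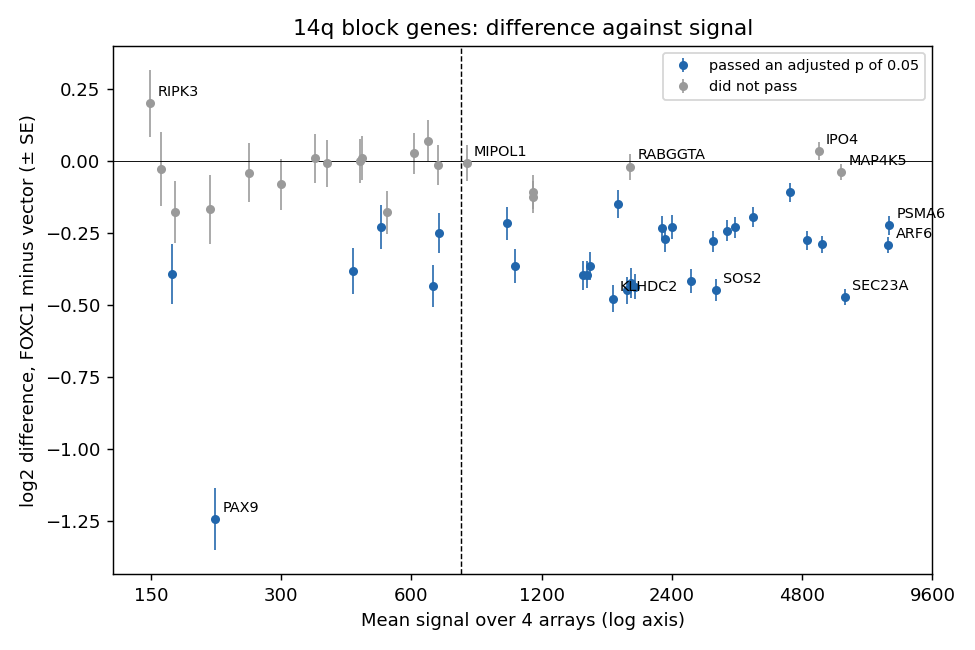
The log2 difference of the 51 measured genes, FOXC1 minus vector with its SE (y axis), against mean signal over the 4 arrays (x axis, log axis); the dashed line is the limit of brightness at 782, and blue points passed an adjusted p of 0.05 in limma. Bright genes spread between -0.48 and 0.04 at all levels of signal, and the dim gene PAX9 lies apart at -1.24.

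Genes of the secretory pathway and membrane traffic formed the largest role group, with 9 of 12 measured genes passing as lower, beside 15.5% of all genes and 31 of 51 in the run. Of its bright genes 8 of 10 passed (80.0%), close to the 25 of 31 (80.6%) of the whole run, so nothing about a role is read from this count or from those of the other role groups. SEC23A, a subunit of the COPII coat that buds vesicles from the endoplasmic reticulum, gave signals of 7050 and 6972 in the vector arrays and of 5045 and 5042 in the FOXC1 arrays. The groups did not overlap, and the log2 difference was -0.47 ± 0.03 (SE), or 1.39-fold lower. ARF6, a small GTPase of endocytosis and the cell cortex, gave 8290 and 8434 in vector and 7001 and 6658 in FOXC1 arrays, a log2 difference of -0.29 ± 0.03 (SE). SNX6, a sorting nexin that works with retromer, went from 5955 and 5795 to 4779 and 4828, also with a difference of -0.29 ± 0.03 (SE). Differences of a smaller size were seen in SCFD1 (-0.24), which controls SNARE assembly at the Golgi, TRAPPC6B (-0.23), a TRAPP tethering subunit, and MGAT2 (-0.23), an N-glycan branching enzyme. SRP54, the signal sequence binding protein of the signal recognition particle, was lower by less, at a log2 difference of -0.20, and HEATR5A by more, at -0.39. The call of SRP54 was lost without a variance trend.

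In the same group 2 bright genes were level. IPO4, an importin, gave 5167 and 5191 in vector and 5469 and 5152 in FOXC1 arrays, so that the groups overlapped, with a log2 difference of 0.04 ± 0.03 (SE). RABGGTA, the alpha subunit of Rab geranylgeranyl transferase, gave 1926 and 1938 in vector and 1959 and 1854 in FOXC1 arrays, with a difference of -0.02 ± 0.04 (SE). Their signals lay within the range of the bright genes that passed. Of the 2 dim genes, STXBP6 passed at -0.39 (-0.31 with an offset of 64), and AP4S1, a subunit of the AP-4 adaptor, was at -0.17 with overlapping groups, at -0.36 and passing without FOXC1 replicate 1, and at 0.03 without FOXC1 replicate 2.

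Genes of ubiquitin pathways, the proteasome and regulated cell death had 5 of 8 measured members passing as lower. KLHDC2, a substrate receptor of cullin ligases, gave 2081 and 1998 in vector and 1478 and 1440 in FOXC1 arrays. Its log2 difference of -0.48 ± 0.05 (SE), or 1.39-fold lower, was the lowest of the 31 bright genes. PSMA6, an alpha subunit of the 20S proteasome, was the brightest gene of the run, with 8478 and 7938 in vector and 7276 and 6781 in FOXC1 arrays, and was lower by less, at -0.22 ± 0.03 (SE). The ubiquitin ligase G2E3 was at -0.37. RNF31, the catalytic subunit of the linear ubiquitin ligase complex, gave 1074 in each vector array and 946 and 899 in FOXC1 arrays, a log2 difference of -0.22 ± 0.06 (SE), and its second and dimmer probe set gave -0.16. FBXO33, an F-box protein, did not pass at -0.11 ± 0.06 (SE), with FOXC1 arrays just below the vector arrays.

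Among the dim members of this group KLHL28 was at -0.25, while CIDEB at -0.18 and the necroptosis kinase RIPK3 at 0.20 did not pass. The call of RNF31 was lost without vector replicate 1 or 2 although its log2 difference stayed at -0.22 without either array. That of KLHL28 was lost without vector replicate 2 (-0.23) and FOXC1 replicate 2 (-0.18), and FBXO33 passed without FOXC1 replicate 1 (-0.19). Without a variance trend both PSMA6 and KLHL28 lost their calls. The shared probe set of NEDD8 gave 8204 and 8223 in vector and 7199 and 6711 in FOXC1 arrays, a log2 difference of -0.24 with no overlap. It cannot be assigned to NEDD8 alone.

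Signalling genes passed as lower in 5 of 9. SOS2, an exchange factor that activates Ras, gave 3564 and 3431 in vector and 2605 and 2514 in FOXC1 arrays, a log2 difference of -0.45 ± 0.04 (SE). STRN3, a regulatory subunit of protein phosphatase 2A, went from 3063 and 3010 to 2340 and 2203, a difference of -0.42 ± 0.04 (SE), and PPP2R3C, another such subunit, was at -0.27. In both SOS2 and STRN3 every FOXC1 array lay below every vector array. MAP4K5, a kinase of the Ste20 group that ends the run, gave 5975 and 5995 in vector and 5874 and 5782 in FOXC1 arrays. Its groups did not overlap, but the log2 difference of -0.04 ± 0.03 (SE) did not pass, and it passed at -0.07 with quantile normalization.

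RALGAPA1, a subunit of the Ral GTPase activating complex, was at -0.15 on its brightest probe set and at -0.26 on 2 others that hold the same values. Its call was lost without vector replicate 1, where the difference was -0.10, without a variance trend and in the fit over all rows. Of the dim signalling genes the anchoring protein AKAP6 passed at -0.23, a call that was lost without vector replicate 2 (-0.17), without FOXC1 replicate 2 (-0.20), without a variance trend and in the fit over all rows. PRKD1, ADCY4 and the somatostatin receptor SSTR1 did not pass, with log2 differences between -0.03 and 0.07.

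Transcription and chromatin genes held the one large difference of the run. PAX9, a paired box factor, gave 287 and 320 in vector and 110 and 128 in FOXC1 arrays, 2.37-fold lower with a log2 difference of -1.24 ± 0.11 (SE). Both groups lay below the limit of brightness, the groups did not overlap, and the difference was -1.01 with an offset of 64. The bright genes of this role all passed, with EAPP, which binds E2F factors, at -0.40, MBIP, a subunit of the ATAC acetyltransferase complex, at -0.28, and BAZ1A, a subunit of the ACF chromatin remodelling complex, at -0.11. BAZ1A gave 4689 and 4670 in vector and 4413 and 4264 in FOXC1 arrays, with no overlap. Its call was lost when vector replicate 1, vector replicate 2 or FOXC1 replicate 2 was left out, at -0.11, -0.11 and -0.08, and also without a variance trend and in the fit over all rows. NKX2-1, a lineage factor of lung and thyroid that stands beside PAX9 in the run, gave 705 and 680 in vector and 651 and 722 in FOXC1 arrays, and the groups overlapped. NPAS3 was at 0.01 and NFATC4 at -0.18, and neither passed, but NFATC4 passed without FOXC1 replicate 2 (-0.24) and with quantile normalization (-0.22).

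Genome maintenance genes were few. TINF2, a subunit of the shelterin complex that protects telomeres, gave 2265 and 2263 in vector and 1703 and 1635 in FOXC1 arrays, a log2 difference of -0.44 ± 0.04 (SE). FANCM, a DNA translocase of the Fanconi anaemia pathway, was dim but passed, with 797 and 753 in vector and 608 and 533 in FOXC1 arrays, a difference of -0.43 ± 0.07 (SE). The meiotic cohesin subunit REC8 was level at signals between 439 and 474. Of the splicing genes PNN passed at -0.23, while PRPF39 at -0.13 and the dim neuronal splicing regulator NOVA1 at -0.04 did not. PRPF39 passed without FOXC1 replicate 1 (-0.16).

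Among the remaining genes 5 of 9 passed as lower. FKBP3, a nuclear prolyl isomerase, gave 2212 and 2149 in vector and 1647 and 1540 in FOXC1 arrays, a log2 difference of -0.45 ± 0.05 (SE). The dehydrogenase DHRS1 went from 2210 and 2218 to 1759 and 1542, at -0.42 ± 0.05 (SE), and SDR39U1 was at -0.37. CFL2, an actin severing cofilin, gave 5443 and 5363 in vector and 4598 and 4325 in FOXC1 arrays, at -0.28 ± 0.03 (SE). The dim gene NUBPL, needed for assembly of respiratory complex I, passed at -0.38. MIPOL1 was level, with 797 and 817 in vector and 831 and 778 in FOXC1 arrays. The dim genes TGM1, COCH and LRFN5 did not pass, with log2 differences between -0.08 and 0.03.

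Promoter sequences are shown for the 3 bright genes with the lowest and the 3 with the highest log2 difference, since these mark the ends of the range within one run of neighbours. They are from RefSeq (GRCh38.p14) and give the 250 bases before the annotated start, 5' to 3' on the strand of the gene. Capitals mark the forkhead core GTAAACA or its reverse complement TGTTTAC, which was searched on both strands in 300 bases, 250 before to 50 after the start. The first 3 belong to the genes that were lowest, and the last 3 to the genes that were level.
KLHDC2, chr14:49767903-49768152, plus strand: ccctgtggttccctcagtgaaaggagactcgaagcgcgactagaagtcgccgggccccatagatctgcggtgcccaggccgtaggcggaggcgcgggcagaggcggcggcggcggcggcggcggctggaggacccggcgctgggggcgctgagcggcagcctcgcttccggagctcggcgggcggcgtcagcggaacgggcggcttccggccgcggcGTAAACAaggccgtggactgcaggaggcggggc
SEC23A, chr14:39103236-39103485, minus strand: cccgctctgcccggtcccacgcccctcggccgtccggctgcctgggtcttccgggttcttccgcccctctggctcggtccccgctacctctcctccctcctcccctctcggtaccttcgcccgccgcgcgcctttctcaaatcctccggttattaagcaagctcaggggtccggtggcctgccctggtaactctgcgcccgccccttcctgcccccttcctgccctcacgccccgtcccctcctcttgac
FKBP3, chr14:45134482-45134731, minus strand: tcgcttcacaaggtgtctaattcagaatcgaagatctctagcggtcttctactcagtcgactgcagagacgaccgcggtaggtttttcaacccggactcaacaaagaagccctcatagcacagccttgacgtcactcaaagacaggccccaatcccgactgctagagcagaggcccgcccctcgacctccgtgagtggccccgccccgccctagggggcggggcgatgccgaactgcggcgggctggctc
RABGGTA, chr14:24271628-24271877, minus strand: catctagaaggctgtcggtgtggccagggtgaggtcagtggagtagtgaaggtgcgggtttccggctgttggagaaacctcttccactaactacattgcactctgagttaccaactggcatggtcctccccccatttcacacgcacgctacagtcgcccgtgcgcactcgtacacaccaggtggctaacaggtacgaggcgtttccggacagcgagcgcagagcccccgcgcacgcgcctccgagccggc
MIPOL1, chr14:37197687-37197936, plus strand: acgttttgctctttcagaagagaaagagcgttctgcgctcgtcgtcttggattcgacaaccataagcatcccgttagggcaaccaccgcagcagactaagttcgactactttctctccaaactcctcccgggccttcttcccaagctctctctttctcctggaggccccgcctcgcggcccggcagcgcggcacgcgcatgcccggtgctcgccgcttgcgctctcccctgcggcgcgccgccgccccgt
IPO4, chr14:24188817-24189066, minus strand: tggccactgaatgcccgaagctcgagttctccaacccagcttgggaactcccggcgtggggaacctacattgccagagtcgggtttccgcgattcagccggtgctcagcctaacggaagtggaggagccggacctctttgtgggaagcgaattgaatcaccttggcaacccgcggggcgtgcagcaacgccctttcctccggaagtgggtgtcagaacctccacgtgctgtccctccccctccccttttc
Of these 6 promoters the one of KLHDC2 holds the core, 33 bases before its start, and RABGGTA has a second annotated start that is not shown.

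Few promoters of the run held the forkhead core. Promoters in the RefSeq table matched 45 of the 51 measured genes, with 67 windows, of which 3 held the core (4.48%). Over all promoters in the table the share was 3.42%. For bright genes of the run it was 2 of 37 windows (5.41%), beside 2.64% over all bright genes. The matches are too few to read a difference in either direction. The matches lay in KLHDC2, SRP54 and NKX2-1, whose log2 differences were -0.48, -0.20 and -0.01, and NKX2-1 has another start without a match. A match of these letters is a description and no binding site. The median GC content of the windows was 63.0% in the run and 65.3% for all bright genes.

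Along the run the differences were not even. Among bright genes of the run from RNF31 to SDR39U1, 4 of 6 passed as lower with a median log2 difference of -0.29, and IPO4 and RABGGTA stood among them. From STXBP6 to NPAS3 all 4 passed, between -0.42 and -0.24, with a median of -0.38. From EAPP to SSTR1, 9 of 10 passed with a median of -0.25, and from SEC23A to MAP4K5, 8 of 11 passed with a median of -0.23. The SD among bright genes was 0.21, 0.08, 0.11 and 0.16 in these stretches in turn. The last of them held KLHDC2, SEC23A, FKBP3 and SOS2 below -0.4 as well as MAP4K5 near 0. Over all bright genes 23.3% passed as lower. With the other measured bright genes of each stretch added, 6 of 8, 6 of 6, 11 of 14 and 12 of 21 passed as lower. In the last stretch 2 of the 21 passed as higher. The medians were then -0.35, -0.39, -0.21 and -0.16. Differences between these stretches were not tested.

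The other measured genes of the interval, 47 in number, were lower less often than the listed genes, which were chosen with this contrast known. That gap can follow from the choice and was not tested. In limma 17 of the 47 passed as lower and 2, CDKL1 and RPL10L, as higher, beside 15.5% and 15.9% of all genes. Of the 19 bright ones 11 passed as lower and 2 as higher, beside 23.3% and 23.9% of all bright genes, with a median log2 difference of -0.16. The difference was below 0 in 15 of the 19, beside 47.2% of all bright genes.

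The largest difference among these 47 was in FOXA1, a forkhead factor of luminal cells that lies in the interval beyond PAX9 and MIPOL1. FOXA1 was dim, with 540 and 556 in vector and 199 and 212 in FOXC1 arrays, a log2 difference of -1.35 ± 0.09 (SE). IRF9, a factor of interferon signalling, gave 1167 and 1176 in vector and 776 and 706 in FOXC1 arrays, at -0.65 ± 0.06 (SE). MIA2 (-0.63) and TOGARAM1 (-0.56) were dim. Of the 19 bright genes, 2 lay below the lowest bright gene of the list, IRF9 among them, while NFKBIA, the NF-kB inhibitor, was at -0.03 beside PSMA6 at -0.22.

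**Figure D3:**
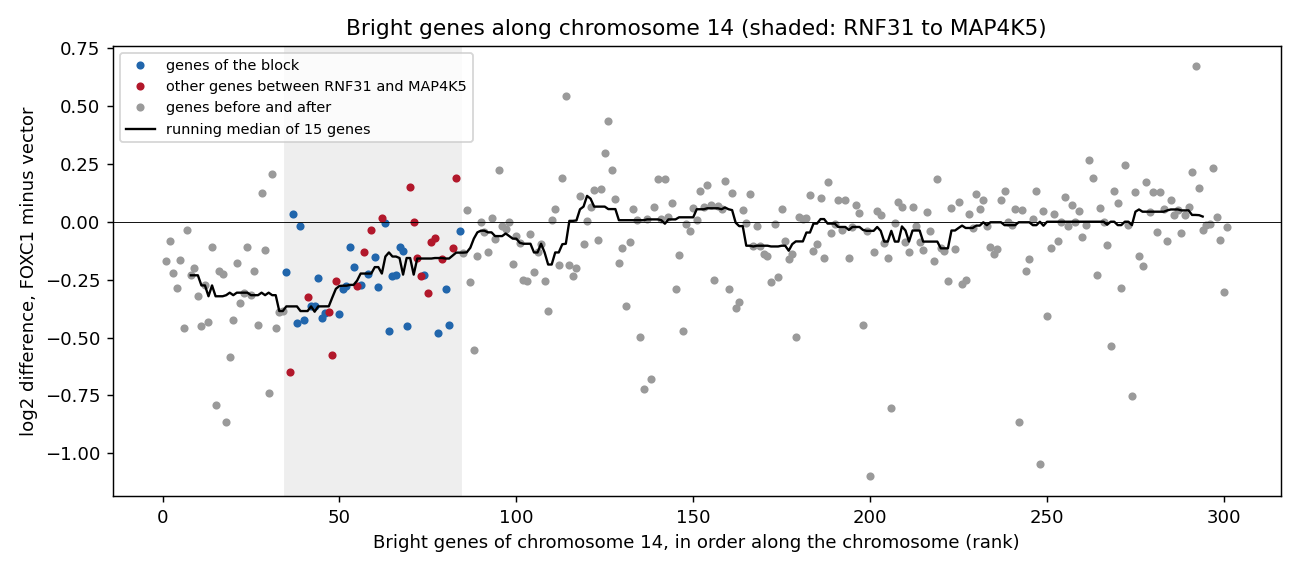
The log2 difference, FOXC1 minus vector (y axis), of 301 bright genes in their order along chromosome 14 (x axis, rank); the shaded part runs from RNF31 to MAP4K5, colours mark listed and other genes, and the black line is the running median of 15 genes. The line lies between -0.39 and -0.13 in the shaded part and stays between -0.39 and -0.23 in the genes before it. In the genes after it the line lies between -0.18, reached at DLGAP5, and 0.11.

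Bright genes before RNF31 were lower too. Of the 34 bright genes of chromosome 14 that precede it, 30 passed as lower and 1 as higher in limma, against 23.3% of all bright genes passing as lower. Their median log2 difference was -0.28, close to that of the listed bright genes, and the running median was at or below -0.23 over all of its points before RNF31. The nearest bright neighbours were PSME1 and PSME2, which encode the proteasome activator PA28 and were at -0.39 each. PSME1 gave 5370 and 5344 in vector and 4173 and 3996 in FOXC1 arrays. Over the 25 measured genes just before RNF31, bright or dim, the picture was mixed. Their median log2 difference was 0.02, with 11 below 0, 7 passing as lower (4 without vector replicate 1) and 2 as higher. Over all genes 15.5% passed as lower and 15.9% as higher. The 7 bright ones of the 25 had a median of -0.39. They ran from AP1G2, an adaptor subunit of membrane traffic, at -0.74 to PCK2, the mitochondrial phosphoenolpyruvate carboxykinase, at 0.21. These neighbours were picked after their values were seen.

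After MAP4K5 the differences were smaller. Of the next 25 measured genes 17 were bright, and of these 6 passed as lower (35.3%) and 1 as higher. The shares over all bright genes were 23.3% and 23.9%. The median log2 difference of the 17 was -0.06, against -0.39 in the bright ones of the 25 before RNF31. The count of 6 over the 25 was 3 without a variance trend. PYGL, glycogen phosphorylase of liver, at -0.55 and NIN, a centrosomal protein, at -0.26 were the lowest bright ones, chosen after their values were seen. Over all 217 bright genes beyond MAP4K5 the median was -0.01, against -0.28 over all 34 before RNF31. Of the 217, 64 passed as lower (29.5%) and 34 as higher, so lower calls were above the 23.3% of all bright genes here too. Chromosome 14 as a whole had the lowest median among 23 chromosomes, at -0.08 over 301 bright genes, with the next lowest at -0.02 on chromosome 9. The ends of the run were chosen with these data known, so no end point was tested.

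Genes that work with the listed genes and lie outside the run were listed with earlier results of these data known, so they are no independent reference. Of 136 such partners 129 were measured, 126 of them on chromosomes other than 14. In limma 29 of the 129 passed as lower, which is 22.5%, near the 23.3% of all bright genes. As higher passed 19 of the 129, beside 23.9% of all bright genes. With either vector array left out, replicate 1 or replicate 2, 16 partners passed as lower, and 13 did without a variance trend. The 123 bright partners outside chromosome 14 had a median log2 difference of 0.02, against -0.27 for the bright genes of the run.

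**Figure D4:**
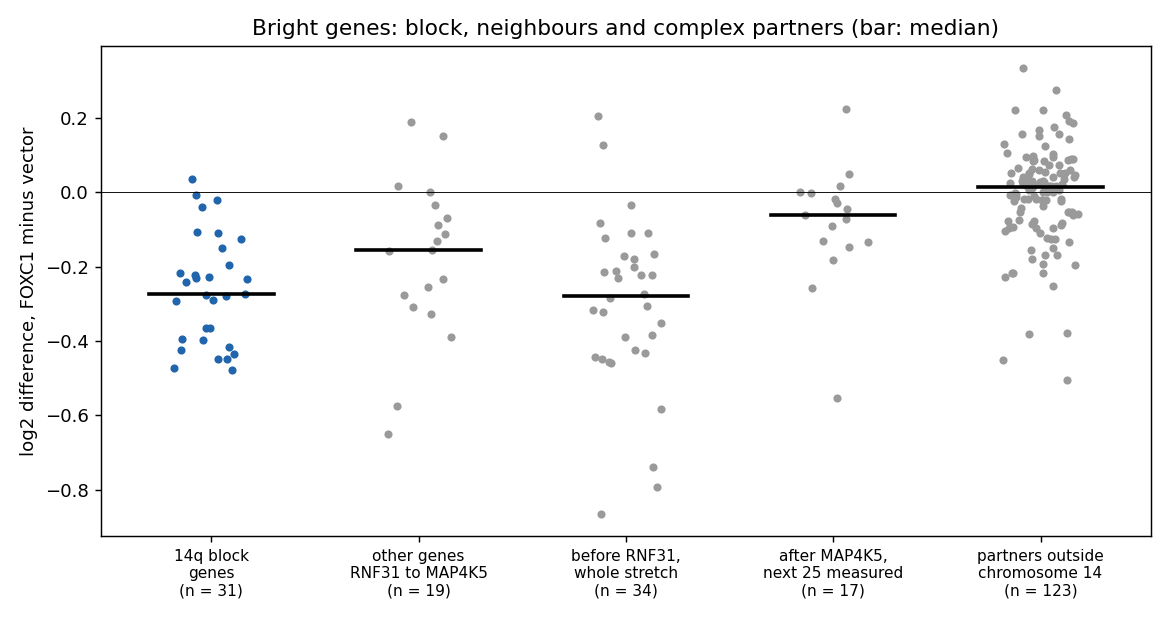
The log2 difference, FOXC1 minus vector (y axis), of bright genes in 5 sets (x axis), each point a gene and each bar a median. Medians are -0.27 in the 14q genes, -0.16 in other genes of the interval, -0.28 in all 34 bright chromosome 14 genes before RNF31, -0.06 in the 17 bright ones of the 25 genes after MAP4K5 and 0.02 in partners outside chromosome 14.

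The counts by complex, here and in the lists that follow, stand beside 23.3% of all bright genes passing as lower and 23.9% as higher. The lists are small, and nothing about a complex is read from its count. Of 13 other 20S proteasome subunits 4 passed as higher, among them PSMA5 (log2 0.21 ± 0.04 SE), PSMA7 (0.16 ± 0.03) and PSMA1 (0.12 ± 0.03), with limma adjusted p between 0.000245 and 0.00163. PSMB5 alone passed as lower, at -0.11, and PSMB5 lies on chromosome 14 before RNF31. Of 10 other COPII genes PREB was the one that passed, higher at 0.16, beside -0.47 for SEC23A. Of 7 partners of SRP54 in the signal recognition particle and its receptor, the receptor subunits SRPRA (-0.10) and SRPRB (-0.09) passed as lower by small amounts. Of 12 TRAPP subunits TRAPPC9 passed as lower at -0.22 and TRAPPC12 as higher at 0.19. Of 7 Golgi SNAREs GOSR1 passed as higher, at 0.14.

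Other partner lists were mixed. In the list of AP-4, retromer and Rab prenylation genes 4 of 11 passed as lower and 4 as higher. VPS26B, a retromer subunit, went from 2271 ± 27.3 to 1598 ± 105 (SD, n = 2) at a log2 difference of -0.50 ± 0.05 (SE), with a limma adjusted p of 3.87e-08. RABGGTB, the catalytic partner of RABGGTA, went from 4310 ± 11.4 to 5438 ± 16.8 (SD, n = 2), a difference of 0.33 ± 0.03 (SE) with a limma adjusted p of 1.66e-08. CHML, a Rab escort protein, passed as higher at 0.28. Of 13 neddylation and cullin genes CUL5 (-0.38) and NAE1 (-0.22) passed as lower and RNF7 (0.15) as higher. Of 13 shelterin and Fanconi core genes 2 passed as lower and 3 as higher, with the dim gene FANCF at -1.17, FANCB at 0.24 and FANCE at 0.22.

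The list of ACF, SIN3 and ATAC chromatin genes was the one with the highest share of lower calls, 10 of 20 with 2 higher. SUDS3, a SIN3 subunit, was at -0.38, the ATAC subunit YEATS2 at -0.22 and TADA2A at -0.20. Its median log2 difference was -0.09, against -0.28 for MBIP and -0.11 for BAZ1A on chromosome 14. Of 13 STRIPAK and RalGAP genes 5 passed as lower and 2 as higher, led by STRIP2 at -0.45, STK26 at 0.18 and RALB at -0.15. Of 4 measured partners of RNF31 and RIPK3 the necroptosis effector MLKL passed as lower at -0.23, and of 6 splicing partners ACIN1, which lies on chromosome 14, at -0.21.

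Paralogs on other chromosomes were set beside the 14q genes. Of 28 measured paralogs, 23 of them bright, 7 passed as lower and 5 as higher (4 and 2 without a variance trend). The shares over all bright genes were 23.3% lower and 23.9% higher, and over all genes 15.5% and 15.9%. The paralogs were picked with earlier results known, and 12 of the 31 bright genes of the run had a listed paralog that was measured. MAP4K5, RABGGTA and MIPOL1, which were near level, had none. In the 12 pairs the paralogs had a median log2 difference of -0.03, against -0.28 for their 14q counterparts. The 14q gene was the lower of each of the 12 pairs. The smallest gaps were -0.06 (IPO4 minus IPO5) and -0.08 (BAZ1A minus BAZ1B). SEC23B passed as higher at 0.13 ± 0.03 (SE), beside SEC23A at -0.47, and SNX5 at 0.10 beside SNX6 at -0.29. SOS1 passed as lower at -0.22 ± 0.03 (SE), beside SOS2 at -0.45, and STRN at -0.17 beside STRN3 at -0.42. ARF5 at -0.17 passed as lower beside ARF6 at -0.29. CFL1, the other cofilin, was at 0.04 and did not pass, beside CFL2 at -0.28. IPO5 passed as higher at 0.09 beside IPO4 at 0.04. Since the 14q genes were chosen on this contrast, the pairs were not tested.

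**Figure D5:**
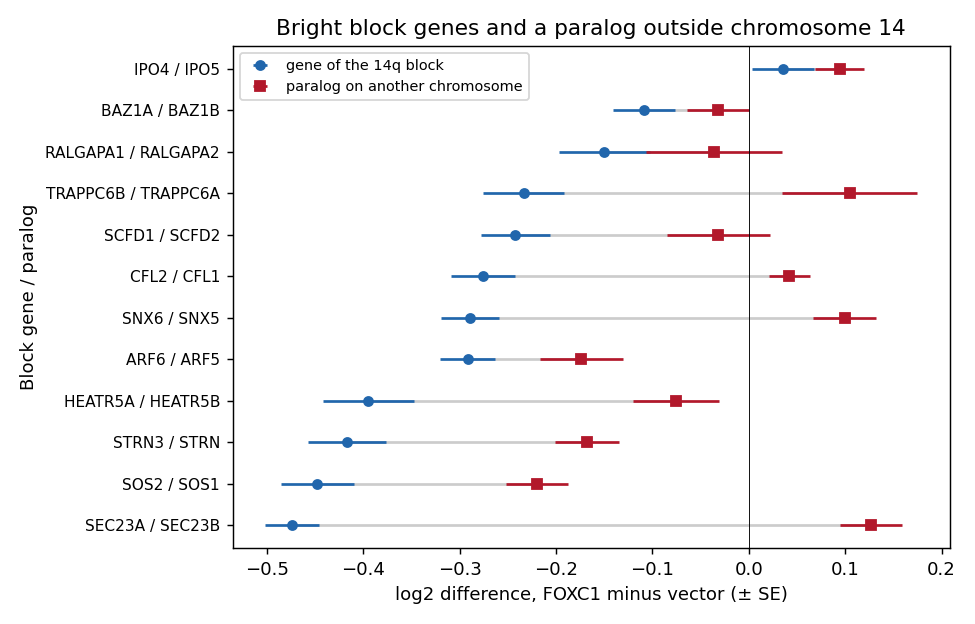
The log2 difference, FOXC1 minus vector with its SE (x axis), of 12 bright 14q genes (blue) and a paralog on another chromosome (red), 1 pair per line (y axis). The blue point lies to the left of the red one in all 12 pairs, with medians of -0.28 and -0.03.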

How the data were processed

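Total RNA (100 ng) was amplified by the whole-transcript protocol and hybridised to Affymetrix HuGene arrays. Per the labels, the authors summarised probes at gene level with PLIER in Affymetrix Expression Console and deposited linear signal intensity. The sources used here do not state the normalization options, the background step or the software versions. Of 33297 probe sets, 21214 carried a gene symbol and entered the fit, 19460 of them with 1 symbol. Linear models were fitted to log2(signal + 16) in limma 3.58.1 under R 4.3.3, moderated by eBayes with a trend (two-sided, 2 residual and 18.1 prior degrees of freedom), with Benjamini-Hochberg adjustment over all of them at 0.05. The offset shrinks differences of dim genes. The fit was tested on simulated data. Each gene took its brightest probe set with 1 symbol. Array annotation was joined to RefSeq by Entrez ID, and RefSeq (GRCh38.p14) gave gene order and promoters. The numbers of the arrays did not pair them (correlation of deviations -0.015). The p-values measure spread between arrays, which may be technical, and precision is limited by their number, 4.

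The listed genes, role groups, partners and paralogs were chosen with earlier results of these data known. Bright genes could be named, with up to 6 of the other genes of the interval, 3 per partner list and 8 paralogs by largest difference among those that passed, and the 6 dim genes of the run with the largest differences. Other dim genes, flanking genes, CDKL1, RPL10L, NFKBIA, PSMB5, CFL1 and BAZ1B were named after their values were seen. RABGGTB, listed as a paralog of RABGGTA, is the other subunit of its enzyme and was kept among the partners alone. A gene of the interval that the rule would name is not reported here. Alternatives were an offset of 1 or of 64, dropping probe sets under the 25th or the 50th percentile, quantile normalization, median centring, no variance trend, robust moderation, a block for the replicate number, the mean of probe sets, all rows, an adjusted p of 0.10, a limit of brightness at the 75th percentile, and leaving out each array.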

Additional observations from a re-analysis of the deposited data

How the results depend on the processing

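Counts of listed genes passing as lower stayed within 1.5 times the reported 31 under every alternative run, from 25 without a variance trend to 34 without FOXC1 replicate 1, and 0 passed as higher in any. With the replicate number as a block 31 passed as lower, and the block changed no call of a listed gene. The median log2 difference of the bright listed genes was -0.249 with median centring, and -0.242 with 13 lower calls when bright meant above the 75th percentile. It ran from -0.282 to -0.232 when single arrays were left out. Without a variance trend 3 of the 25 genes after MAP4K5 passed as lower, 13 partners as lower and 4 as higher, 4 paralogs as lower and 2 as higher, and 1790 of all genes as lower and 1461 as higher. In a fit over all rows 16 partners passed as lower, 3 paralogs as higher and 1858 of all genes as higher, and with median centring 36 partners and 8 paralogs passed as higher. Leaving out single arrays gave 4 to 6 lower calls among the 25 genes before RNF31, 16 to 32 lower partners, and 1913 to 2951 higher calls over all genes. The cause of these changes was not tested. No listed gene that passed changed sign, while 12 that did not pass, all near 0 except AP4S1, did under at least 1 alternative. Dim genes limit what can be seen, since 20 of the 51 lay under the limit of brightness.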
